A study of Schizosaccharomyces pombe with 23 samples.

Results

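The labour division of DNA polymerases was described in wild-type (WT) fission yeast, Schizosaccharomyces pombe, whose programmable replication fork barrier (RFB) was switched off. The 3 libraries used are the deep WT RFB OFF libraries among the 23 libraries of the series: strain KK1467, mutated in polymerase delta (Pol δ, cdc6-L591G), against strains KK1473 and KK1474, mutated in polymerase epsilon (Pol ε, cdc20-M630F). All 300-bp bins were taken on both strands, 18598 on chromosome I, 15140 on chromosome II and 8171 on chromosome III, which gave 83818 combinations of bin and strand, all that the files hold. All 3 strains lacked rtf1 (rtf1::Nat) and carried rnh201-RED:Kan, an allele of the catalytic RNase H2 subunit defective in ribonucleotide excision, the RTS1 barrier sequence on chromosome II (Rura-ChrII RTS1::phleo) and the alleles ura4-D18, ade6-704 and leu1-32, and cells were growing exponentially in rich medium. From WT RFB ON, in which Nat:ADH1:rtf1 replaced the deletion of rtf1, 1 Pol δ library (KK1471) and 1 Pol ε library (KK1475) were used to set fork direction for the leading-strand and lagging-strand measures and to compare values; they took no part in Pol δ usage, the index or the origins of RFB OFF. Each strain number is a strain of its own, and with 1 Pol δ library no spread over Pol δ strains can be given.

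Replication forks leave an origin in both directions. On each fork the leading strand is made continuously, mainly by Pol ε, and the lagging strand in short pieces, mainly by Pol δ. In polymerase usage sequencing (Pu-Seq) the mutated polymerase inserts extra ribonucleotides, which remain in the DNA where RNase H2 cannot excise them and are mapped per strand, so that a Pol δ library marks lagging strands and a Pol ε library marks leading strands. Fission yeast origins have no common consensus sequence. They lie in stretches rich in A and T, which the origin recognition complex binds through the AT-hook domain of its Orc4 subunit.

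KK1467 held 17000711 counts, with a median of 167 per bin and strand. KK1473 and KK1474 held 13749680 and 15138124 counts, with medians of 138 and 155. Of the 23 libraries, 20 were deep (averaging 10 counts or more for each strand of a bin), and these held 5396348 to 38663174 counts. The open reading frame of rtf1, which encodes the DNA-binding protein that activates the barrier, was checked first. Counts over it were 4.67% of those in the flanking bins in KK1467, 3.02% in KK1473 and 3.05% in KK1474, against 65.1% and 63.2% in the WT RFB ON libraries KK1471 and KK1475. A further library with the genotype of KK1467, KK1468, held 7167 counts and was left out of every measure reported here. It stood against its label, since 60.2% of its counts lay on leading strands, against 31.1% in KK1467.

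On each strand of each bin, every count was scaled to its own library and the Pol ε libraries were averaged. Pol δ usage is then the part of the Pol δ value in the total of both, and Pol ε usage is the remainder. Fork direction is given by a rightward-fork index, the mean of Pol ε usage on Watson and Pol δ usage on Crick, which is near 1 where forks run rightward and near 0 where they run leftward. An origin in this sense is a step of the index, called where the mean index of the 10 bins to the right exceeded that of the 10 bins to the left by at least 0.1, at the highest such step within 10 bins. The rise of an origin is the span of the index, smoothed over 11 bins, between its lowest value to the left and its highest value to the right, within the neighbouring origins.

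The bins of the 3 origins of chromosome I with the largest rise are shown first, because the step of fork direction was called there. The bin of the highest index of the chromosome is shown for contrast. All are Watson strands, 5′ to 3′, from the RefSeq assembly ASM294v3, and capitals mark the longest uninterrupted run of A and T. The first origin, chrI:3952801-3953100, lies between the divergent genes saf2 and lsk1. The origin bin of chrI:843601-843900 lies inside wss1, and that of chrI:3634801-3635100 between the tandem genes noc201 and ctr5. The contrast bin, chrI:2646001-2646300, lies inside rng2.
saf2-lsk1 origin: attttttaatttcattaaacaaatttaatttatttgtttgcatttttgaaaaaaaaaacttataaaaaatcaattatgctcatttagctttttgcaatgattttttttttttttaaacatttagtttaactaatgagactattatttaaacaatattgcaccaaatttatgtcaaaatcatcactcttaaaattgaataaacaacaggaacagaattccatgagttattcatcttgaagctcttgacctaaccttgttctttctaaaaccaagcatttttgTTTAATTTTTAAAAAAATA
wss1 origin: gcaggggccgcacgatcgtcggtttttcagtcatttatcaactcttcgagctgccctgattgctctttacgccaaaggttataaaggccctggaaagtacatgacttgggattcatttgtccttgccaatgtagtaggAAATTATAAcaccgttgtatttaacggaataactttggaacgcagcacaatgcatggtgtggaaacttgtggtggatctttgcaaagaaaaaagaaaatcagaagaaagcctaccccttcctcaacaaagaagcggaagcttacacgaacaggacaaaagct
noc201-ctr5 origin: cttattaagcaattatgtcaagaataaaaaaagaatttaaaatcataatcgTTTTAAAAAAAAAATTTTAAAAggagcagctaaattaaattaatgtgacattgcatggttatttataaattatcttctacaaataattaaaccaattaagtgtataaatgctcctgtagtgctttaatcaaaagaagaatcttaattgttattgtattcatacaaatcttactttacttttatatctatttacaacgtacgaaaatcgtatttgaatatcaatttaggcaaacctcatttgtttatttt
rng2 bin of the highest index: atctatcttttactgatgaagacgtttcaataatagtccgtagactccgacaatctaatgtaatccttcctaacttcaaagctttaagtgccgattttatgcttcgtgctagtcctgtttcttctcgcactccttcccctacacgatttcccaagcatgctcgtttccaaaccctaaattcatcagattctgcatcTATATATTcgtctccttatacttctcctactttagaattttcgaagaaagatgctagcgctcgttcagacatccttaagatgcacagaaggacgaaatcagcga
The saf2-lsk1 bin was 79.0% A and T with a longest run of 19 bases, and the noc201-ctr5 bin was 78.0% with a run of 22 bases. These bins were richer in A and T than 99.8% and 99.6% of the bins of the chromosome. The wss1 bin was 56.3% A and T with a longest run of 9 bases, and 7.03% of bins held less. The rng2 bin was 59.7% A and T with a longest run of 8 bases.

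The first question was how the strands of a fork are shared between the polymerases. Fork direction was taken from the WT RFB ON libraries, the 100 kb around the barrier being left out, and usage was measured in RFB OFF. The Pol δ library placed most of its counts on lagging strands and both Pol ε libraries most of theirs on leading strands. The leading strand held 31.1% of the counts in KK1467, against 69.8% in KK1473 and 70.0% in KK1474. The same shares in WT RFB ON, which set the direction, were 30.0% in KK1471 and 71.0% in KK1475. Pol δ usage of the lagging strand averaged 0.689 ± 0.00081, and Pol ε usage of the leading strand 0.687 ± 0.0020 (SD over the 2 Pol ε libraries, each with KK1467; 41558 bins). With 1 library against 2, a permutation test could give no exact p below 0.333, so no test was made of these means.

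Usage lay further from 0.5 the further the RFB ON index of a bin lay from 0.5, which the measure brings about. In a bin, leading-strand Pol ε and lagging-strand Pol δ usage average to the index, or to 1 minus it on leftward forks. The index of RFB OFF followed that of RFB ON (r = 0.983 away from the barrier). These values thus describe the mix of fork directions in a bin and do not measure a change in the division of labour. In the 12027 bins whose RFB ON index lay between 0.4 and 0.6, lagging-strand Pol δ usage was 0.545 ± 0.0025 and leading-strand Pol ε usage 0.564 ± 0.0022 (SD, 2 Pol ε libraries). In the 18647 bins with an index under 0.3 or over 0.7 they were 0.802 ± 0.00047 and 0.782 ± 0.0018. In the 640 bins with an index under 0.1 or over 0.9 they reached 0.912 ± 0.0028 and 0.882 ± 0.0023, and the leading strand held 9.87% of the counts in KK1467, against 89.5% in KK1473 and 90.03% in KK1474. Rightward and leftward forks had similar means. Lagging-strand Pol δ usage was 0.688 ± 0.00058 on rightward and 0.689 ± 0.0010 on leftward forks, and leading-strand Pol ε usage was 0.687 ± 0.0019 and 0.688 ± 0.0022. These SDs all share KK1467, and whether the directions differ was not tested. The lagging-strand and leading-strand means cannot be ranked, because TMM-scaled counts, a scaling by the trimmed mean of the bulk of the windows, moved them by about 0.01 in opposite directions, to 0.699 for lagging-strand Pol δ and 0.677 for leading-strand Pol ε.

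Watson and Crick usage mirrored each other bin by bin. Over the 41891 bins with usage on both strands, Pearson's r between Watson and Crick Pol δ usage was -0.927; these are separate counts, from the same libraries and scaled by the same totals. In the tenth of bins with the lowest Crick usage, mean Pol δ usage was 0.155 on Crick and 0.845 on Watson, and in the tenth with the highest it was 0.874 on Crick and 0.177 on Watson. The sum of both strands averaged 1.001 with an SD of 0.0869 over bins. From the 1st to the 99th percentile, Pol δ usage ran from 0.110 to 0.917 on Watson and from 0.111 to 0.919 on Crick. The median counting error of a usage value was 0.0210, and the Pol ε libraries, each combined with KK1467, differed per bin and strand by a median SD of 0.0138.

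**Figure D1:**
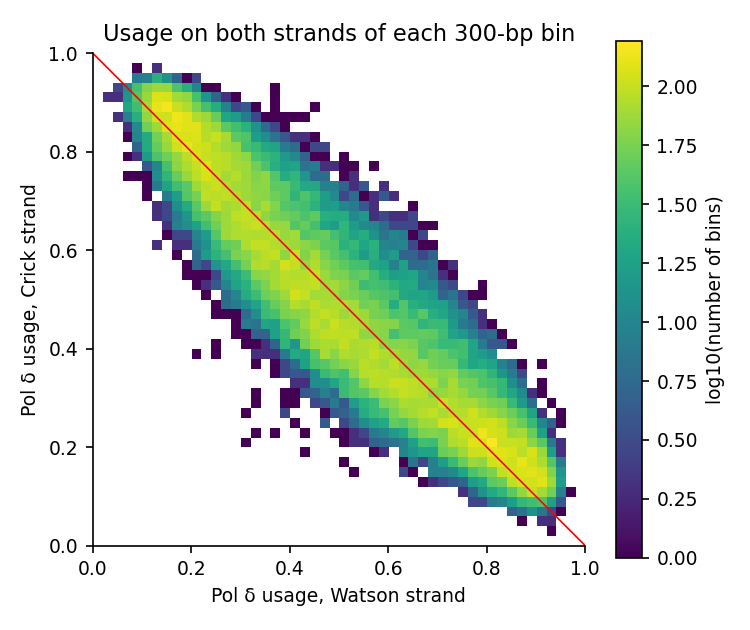
Pol δ usage on the Watson strand (x axis) against the Crick strand (y axis) of the 41891 bins, coloured by the log10 number of bins per cell of the grid; the red line marks a sum of 1. The bins lie along the line, from 0.110 to 0.917 on Watson between the 1st and the 99th percentile.

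Read from each strand alone, smoothed over 11 bins, the direction of the fork was the same in 88.5% of bins. The strands opposed each other in 4803 bins, and all of these had an index within 0.1 of 0.5, as 29.9% of all bins did. Beyond that range, 0 of the bins were opposed. The index is the mean of both readings, so readings on opposite sides of 0.5 place it near 0.5, and the measure largely brings this about. The share of bins with the same direction was 87.7% on chromosome I, 88.1% on chromosome II and 91.4% on chromosome III.

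Which strand each polymerase marked was then tested in 3-kb windows per strand with edgeR's quasi-likelihood test (TMM normalization, Benjamini-Hochberg adjustment). The spread comes from the 2 Pol ε libraries alone, with 1 residual degree of freedom per window. To this edgeR adds a spread shared over windows, with a median of 27.0 prior degrees of freedom, on which the calls rest. KK1467 is assumed to vary like the Pol ε libraries, so these calls describe the 3 libraries and carry no spread between Pol δ strains. Of 8380 windows, 7851 passed an adjusted p of 0.05 (93.7%), 3923 with higher counts in Pol δ (46.8%) and 3928 with higher counts in Pol ε (46.9%). With the spread taken from all 20 deep libraries of the series, which include replicate Pol δ strains of other groups, 6875 windows passed (82.0%). Away from the barrier, 3741 of the 3891 windows with higher Pol δ were on the lagging strand according to the RFB ON libraries (96.1%), as were 132 of the 3895 windows with higher Pol ε (3.39%). Of the 526 windows without a call, 53.8% were on the lagging strand, and their index in RFB ON was a median of 0.0367 from 0.5.

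In pairs of windows at the same place, Pol δ was higher on Watson and Pol ε on Crick in 1735 of the pairs (41.4%), and the reverse held in 1720 (41.1%). Both strands were called for Pol δ in 141 pairs (3.37%) and for Pol ε in 109 pairs (2.60%), numbers that fell to 41 and 9 with the spread of all deep libraries. The median log2 ratio of Pol δ over Pol ε was 1.23 in windows called for Pol δ and -1.11 in windows called for Pol ε.

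The windows of the largest ratio in each direction, per chromosome and strand, were picked by that ratio among the called windows. The distance between their Pol δ and Pol ε counts follows from this choice, and they are given as description. With the spread of all deep libraries, edgeR's adjusted p of those given here, from the same counts, was 0.00022 to 0.00027. On Crick of chromosome III, 855001 to 858000, KK1467 had 5246 counts, against 262 in KK1473 and 269 in KK1474 (log2 ratio 4.14). On Watson of the same 3 kb, KK1467 had 396 counts, against 2725 and 3025 in KK1473 and KK1474 (log2 ratio -3.02). Both strands thus put this window among rightward forks, and it holds the highest index of the chromosome. The opposite arrangement was seen on Watson of 1317001 to 1320000, with 4567 counts in KK1467, against 257 and 264 in KK1473 and KK1474 (log2 ratio 3.97), and on Crick of 1956001 to 1959000, with 383 counts in KK1467, against 2601 and 2772 (log2 ratio -2.97). On chromosome II, the window from 849001 to 852000 had 341 Watson counts in KK1467, against 3186 and 3400 in KK1473 and KK1474 (log2 ratio -3.44), and 3135 Crick counts in KK1467, against 214 and 217 (log2 ratio 3.70). There, too, both extremes fell into 1 window of rightward forks. Leftward forks had 4310 Watson counts in KK1467 from 1104001 to 1107000, against 343 and 293 in KK1473 and KK1474 (log2 ratio 3.60), and 396 Crick counts in KK1467 from 3420001 to 3423000, against 3768 and 4052 (log2 ratio -3.47). On chromosome I, Crick of 4089001 to 4092000, mostly over cmk2, which encodes a calmodulin-dependent kinase, had 4370 counts in KK1467, against 285 and 224 in KK1473 and KK1474 (log2 ratio 3.94). Watson of 2643001 to 2646000, over hcs1, the gene of hydroxymethylglutaryl-CoA synthase in sterol synthesis, had 376 counts in KK1467, against 3939 and 4365 (log2 ratio -3.63). Crick of 2331001 to 2334000, inside neo1, which encodes a phospholipid flippase, had 253 counts in KK1467, against 2330 and 2580 (log2 ratio -3.44).

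Forks ran rightward and leftward over equal shares of the genome. The mean index was 0.499 on chromosome I, 0.4998 on chromosome II and 0.4998 on chromosome III, with SDs over the 2 Pol ε libraries of 0.000077, 0.00015 and 0.00022, and 50.04% of bins had a smoothed index over 0.5. Of all bins, 8.72% had a smoothed index over 0.8, 8.56% had one under 0.2, and 29.9% lay between 0.4 and 0.6. The index was not calibrated to shares of forks, so these are not the shares of bins passed in 1 direction only. Chromosome III had the largest share of bins at the extremes, 10.3% over 0.8 and 11.2% under 0.2, against 8.89% and 8.10% on chromosome I and 7.66% and 7.72% on chromosome II.

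The direction changed 952 times along the genome. Runs of bins with rightward forks had a median length of 10.8 kb and runs with leftward forks 10.5 kb. The longest rightward runs spanned 45.9 kb on chromosomes I (1509001 to 1554900) and II (1158601 to 1204500), and the longest leftward run 45.6 kb on chromosome I (4693501 to 4739100). That leftward run holds hhf1 and hht1, divergent genes for histones H4 and H3, described with the other genes further on.

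The index reached similar limits on the 3 chromosomes. The highest smoothed index was 0.920 ± 0.0078 on chromosome I (SD over the 2 Pol ε libraries, here and in the rest of the paragraph), 0.921 ± 0.0030 on chromosome II and 0.919 ± 0.0012 on chromosome III. The lowest was 0.0885 ± 0.0061, 0.0811 ± 0.0011 and 0.0902 ± 0.0036. The highest of chromosome I lay in rng2, which encodes an IQGAP protein of the cytokinetic ring. There the Watson share of the counts, as a fraction over 11 bins, was 0.0911 in KK1467, against 0.928 in KK1473 and 0.942 in KK1474. The lowest of chromosome I, chrI:2575801-2576100, overlapped the start of pts1, which is transcribed leftward and encodes a proteasome core subunit. Its Watson share was 0.924 in KK1467, against 0.109 and 0.0909 in KK1473 and KK1474. The WT RFB ON libraries gave 0.931 and 0.0759 at these places of chromosome I.

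The highest index of chromosome II, at 849901 to 850200, fell next to the inactive barrier. In the 30 kb from 840001 to 870000, which the RTS1 insertion lies in, the mean index was 0.798 ± 0.00049 in RFB OFF (SD over the 2 Pol ε libraries), against 0.530 in RFB ON. Pol δ usage there was 0.211 on Watson and 0.807 on Crick in RFB OFF, against 0.653 and 0.720 in RFB ON. Outside the 100 kb around the barrier, the index of RFB OFF and RFB ON differed by a median of 0.0271 per bin (r = 0.983 over 40840 bins, which share the chromosome position and base composition but no library).

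Across the 3 chromosomes 612 origins were called, 253 on chromosome I, 245 on chromosome II and 114 on chromosome III. The median distance between neighbours was 17.1 kb over 609 distances, with quartiles of 10.2 and 27.9 kb and a range of 3.90 to 69.9 kb. Origins were closest on chromosome II, with a median distance of 14.4 kb, against 18.9 kb on both chromosomes I and III. The median rise was 0.397, and it was lowest on chromosome II (0.363), against 0.419 on chromosome I and 0.476 on chromosome III. With 1 set of 3 libraries behind all chromosomes, these differences have no test. A rise of at least 0.5 was reached by 233 origins (38.1%), and these were a median of 46.2 kb apart, with quartiles of 29.8 and 67.7 kb. The number of origins depends on the size of step required, as 434 remained at a step of 0.2 and 740 were called at 0.05.

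**Figure D2:**
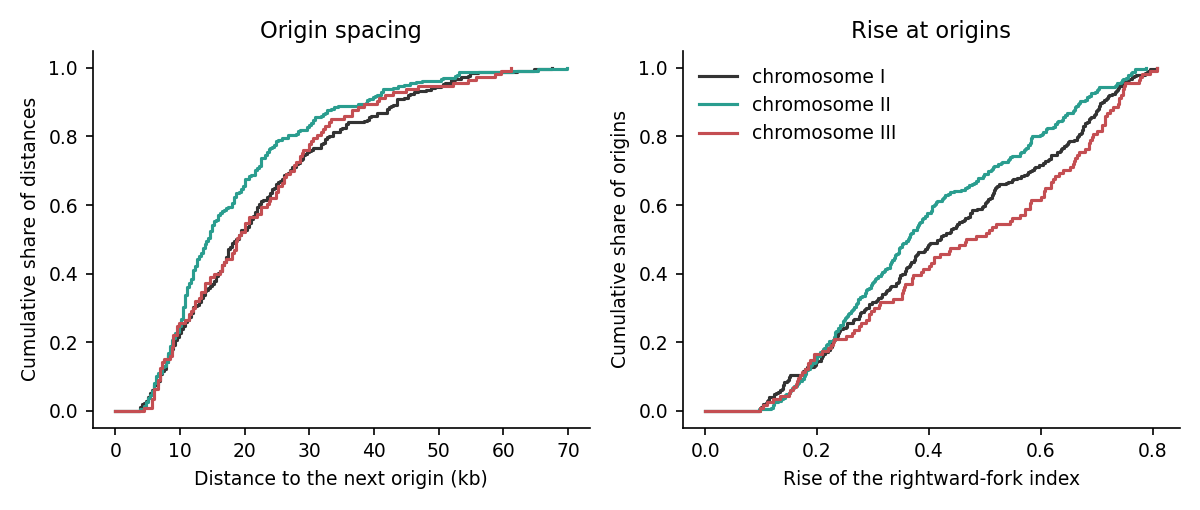
Cumulative share of the distances to the next origin in kb (left) and of the rise of the rightward-fork index at origins (right), one line per chromosome. Chromosome II has the lowest median in both panels, 14.4 kb and 0.363, while the lines cross near their ends.

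Directions changed steeply at origins and gradually between them. The smoothed index rose over 31.9% of the genome, by a mean of 0.0643 per kb, and over the rest it changed by a mean of -0.0300 per kb. Of 477 places where it crossed 0.5 upward, 445 lay within 2 kb of an origin (93.3%), which the way of calling them favours. The 474 downward crossings between origins lay at a median of 0.504 of the distance from the left to the right origin, with quartiles of 0.393 and 0.629. In 82 stretches between neighbouring origins the index fell from over 0.8 to under 0.2. This fall took a median of 17.0 kb, from 6.60 to 50.7 kb, which was 56.3% of the distance between the origins at the median.

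The 3 origins of the largest rise on each chromosome were followed in the single libraries. At the saf2-lsk1 origin of chromosome I the rise was 0.808, and lsk1, to the right, encodes a kinase of the RNA polymerase II tail. In the 3 kb to the left of it the Watson strand held 83.4% of the counts in KK1467, against 8.62% in KK1473 and 7.88% in KK1474. In the 3 kb to the right it held 14.0% in KK1467, against 92.4% and 92.2%. The libraries of both polymerases thus exchanged their strands within a few bins. In the bin 1.2 kb to the left, KK1467 had 417 Watson and 73 Crick counts, against 36 and 498 in KK1473 and 27 and 473 in KK1474. In the bin 1.2 kb to the right, KK1467 had 67 Watson and 393 Crick counts, against 294 and 24 in KK1473 and 366 and 37 in KK1474. In the origin bin itself the strands were close to even, with 94 Watson and 130 Crick counts in KK1467, against 119 and 101 in KK1473 and 123 and 114 in KK1474. The step of the index was 0.753 ± 0.00079 in RFB OFF (SD over the 2 Pol ε libraries) and 0.775 in WT RFB ON.

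**Figure D3:**
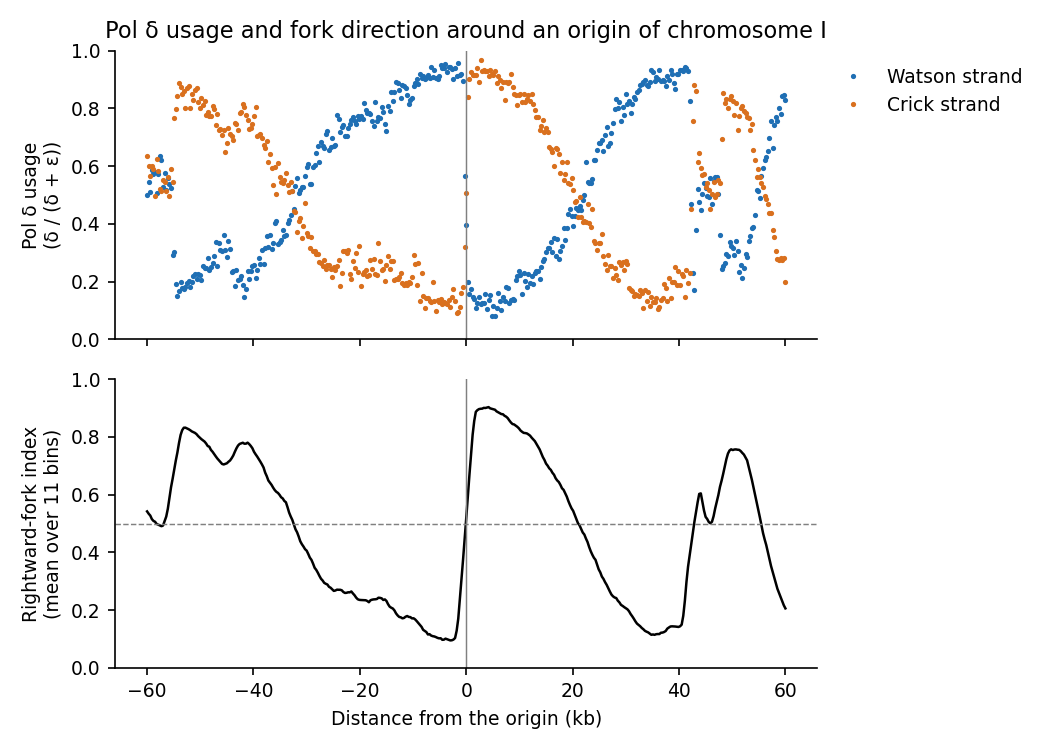
Top, Pol δ usage of single 300-bp bins on Watson and Crick over 60 kb on either side of the saf2-lsk1 origin of chromosome I; bottom, the smoothed rightward-fork index with the value 0.5 dashed; the x axis is the distance from the origin in kb. The strands swap at the origin, where the index has a rise of 0.808, and cross back gradually on both sides.

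At the wss1 origin, whose bin is poor in A and T, the rise was 0.796 with a step of 0.665 ± 0.0067. The gene encodes a protease that removes proteins crosslinked to DNA. Watson held 83.5% of the counts to the left in KK1467, against 17.7% and 17.5% in KK1473 and KK1474, and 15.1% to the right, against 83.9% and 84.7%. The next gene to the left, 0.976 kb away, was tgs1, which encodes the enzyme of the trimethylguanosine cap. At the noc201-ctr5 origin the rise was 0.793 with a step of 0.756 ± 0.0052; noc201 encodes a ribosome assembly factor and ctr5 a subunit of the copper transporter. Watson held 85.8% to the left in KK1467, against 9.79% and 9.55% in KK1473 and KK1474, and 10.04% to the right, against 89.2% and 87.5%.

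On chromosome II the largest rises were 0.788 (bin centre 3424050), 0.769 (2320650) and 0.769 (2554950). At the first, the Watson share in the 3 kb to the left was 88.5% in KK1467, against 5.41% in KK1473 and 6.48% in KK1474. On chromosome III they were 0.808 (367950), 0.795 (1250850) and 0.782 (1321350). At 367950 the Watson share to the left was 89.0% in KK1467, against 11.7% and 12.0%, and to the right 13.4%, against 90.4% and 91.4%. At all 9 named origins the Watson share of KK1467 fell and that of both Pol ε libraries grew from left to right, and KK1471 and KK1475 did the same. Positions on chromosomes II and III are those of the files, and no genes are named there because these chromosomes differ in length from the assembly.

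The longest stretches without a called origin were 67.5 kb on chromosome I, between origins at 3059850 and 3127350, 69.9 kb on chromosome II (847650 to 917550) and 61.2 kb on chromosome III (1972350 to 2033550). On chromosome I the left origin lay between bgs2, which encodes a glucan synthase of the spore wall, and cps1, and had a rise of 0.636. The right one lay between srb8, of the Mediator complex, and rim2, with a rise of 0.517. Within this stretch the smoothed index reached 0.912 and 0.154 and crossed 0.5 on 3 occasions. The stretch of chromosome II is the one next to the inactive barrier. The shortest distances were 3.90 kb on chromosomes I and II and 4.50 kb on chromosome III, the step itself being taken over 3 kb on either side.

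Since the index joins all 3 libraries, each origin was looked for in single libraries by the Watson share, which should fall across an origin in Pol δ libraries and grow in Pol ε libraries. A step of at least 0.05 in that direction within 2 kb was found for 581 of 612 origins in KK1467 (94.9%). It was found for 595 in KK1473 and 595 in KK1474 (97.2%), and 558 were found in all 3 libraries (91.2%). The origins were called from these 3 libraries, so the shares are favoured by the call and are no independent support. How often other bins would have such a step nearby was not measured. In WT RFB ON, whose libraries took no part in the calls, 574 were found in KK1471 (93.8%) and 596 in KK1475 (97.4%), and 559 in both. All 233 origins with a rise of at least 0.5 were found in each of the 5 libraries. The 54 origins not found in all RFB OFF libraries had a median step of 0.124, and 49 of them had a step under 0.2. The sizes of the steps correlated at r = 0.990 between KK1467 and KK1471, and at -0.806 and -0.824 between KK1467 and the Pol ε libraries (612 origins; the points share base composition).

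Around the 233 origins of the larger rise, the mean index went over from a lowest value of 0.172 at 1.2 kb to the left to a highest value of 0.826 at 1.2 kb to the right. From 10% to 90% of this change took 1.2 kb, or 4 bins. At 15 kb the mean index was back to 0.407 on the left and 0.589 on the right. Around the 150 origins with a rise under 0.25 it changed from 0.404 to 0.611 only, and by 15 kb the order was the reverse, 0.549 on the left and 0.451 on the right. At that distance forks thus ran, on balance, towards these origins.

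**Figure D4:**
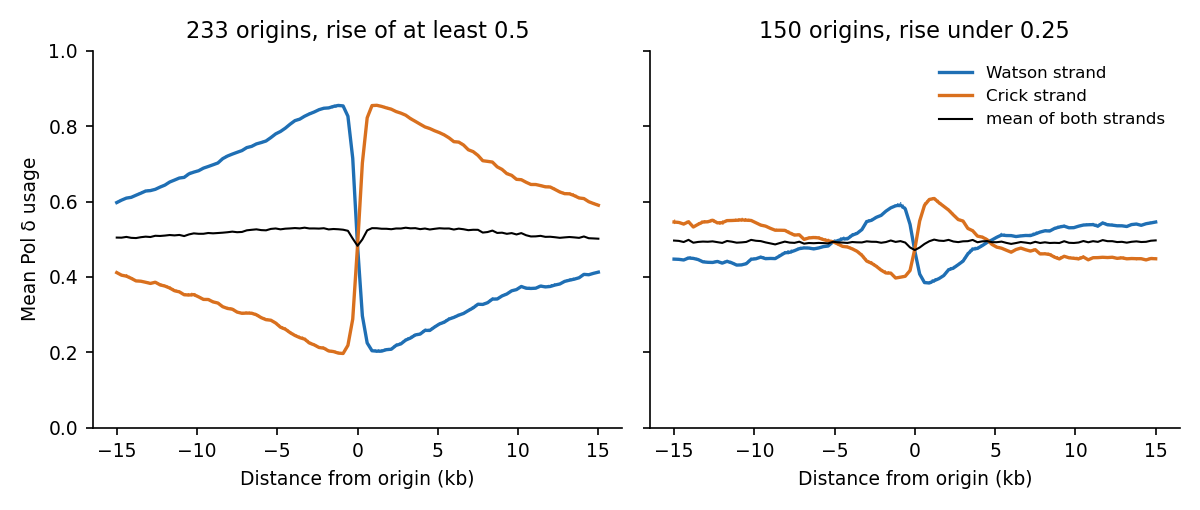
Mean Pol δ usage on Watson, on Crick and over both strands by distance from origins in kb, for the 233 origins with a rise of at least 0.5 (left) and the 150 with a rise under 0.25 (right); dotted lines, nearly hidden, use KK1473 or KK1474 alone. The strands swap within 1.2 kb at the origins of larger rise, and the mean of both strands stays near 0.5.

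The mean of both strands, the Pol δ bias, was close to 0.5 on average, as the scaling to library totals brings about, but varied with the distance from origins. Within 1 to 5 kb of an origin it averaged 0.515 ± 0.0017 (14581 bins), and beyond 10 kb from any origin 0.479 ± 0.0014 (11200 bins; SD over the 2 Pol ε libraries). The difference was 0.0359, with 0.0360 from KK1473 and 0.0357 from KK1474. In WT RFB ON, away from the barrier, the values were 0.505 and 0.466. In the bins of the origins themselves the bias was 0.482 ± 0.0019, against 0.508 ± 0.0010 at 0.3 to 0.9 kb. The relative depth moved too: mean counts at 1 to 5 kb were 1.12 times the library mean in KK1467, against 1.03 in KK1473 and 1.04 in KK1474, and beyond 10 kb they were 0.877, against 1.01 and 0.999. Bias and relative depth are computed from the same scaled counts, so the difference in depth is the bias seen another way and no separate result.

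On chromosome I the AT content of a bin also moved with the bias, and its part in the result was not tested. Over 5 classes of about equal size, from the bins poorest in A and T to the richest, the mean bias was 0.502, 0.494, 0.494, 0.490 and 0.484. The difference with distance was present in each of the 5 classes: in the poorest the bias was 0.515 at 1 to 5 kb and 0.481 beyond 10 kb, and in the richest 0.4996 and 0.463. The origin bins lay mostly in the richest class, 210 of 253, where their bias was 0.471 ± 0.0037.

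In these libraries Pol δ usage was higher on chromosome III than on the others. The mean bias was 0.528 ± 0.0014 on chromosome III without its outermost 30 kb, against 0.494 ± 0.0013 on chromosome I and 0.496 ± 0.0015 on chromosome II (SD over the 2 Pol ε libraries). This inner part of chromosome III took 19.7% of the counts in KK1467, against 17.1% in KK1473 and 17.0% in KK1474, and spanned 19.0% of the bins. In WT RFB ON the bias was 0.519 there, against 0.481 and 0.485 on chromosomes I and II. Over the deep libraries of the series the share ran from 18.7% to 19.7% in 10 Pol δ libraries and from 17.0% to 19.7% in 10 Pol ε libraries, so the 2 polymerases overlapped. The medians were 19.3% and 18.2%. KK1467 had the highest share of these Pol δ libraries and KK1474 the lowest of these Pol ε libraries, so the comparison made here sets opposite extremes against each other. The ends of chromosome III, which hold the repeated ribosomal DNA, took 5.70% of the counts in KK1467, against 4.04% in KK1473 and 4.71% in KK1474, in 0.477% of the bins.

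Towards the chromosome ends, the outermost 30 kb had a mean index of 0.329 ± 0.0037 at the left and 0.629 ± 0.0037 at the right end of chromosome III, so forks ran mostly outward. The right end of chromosome II was similar with 0.608 ± 0.00076. The left end of chromosome I had 0.419 ± 0.00038, its right end 0.516 ± 0.0014 and the left end of chromosome II 0.510 ± 0.0017 (SD over the 2 Pol ε libraries). Bias in these 30 kb was lower on chromosomes I and II, at 0.436 to 0.454, than on chromosome III, at 0.528 and 0.540.

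The sequence and the annotation took no part in calling origins, and on chromosome I they could be read. Origin bins held a median of 73.3% A and T, against 63.7% in all 18598 bins, and 36.0% of them reached 75%, against 1.66% of all bins. They lay between protein-coding genes in 218 of 253 cases (86.2%), against 21.1% of all bins. Among them, 120 were between divergent genes (47.4%), 89 between tandem genes (35.2%) and 9 between convergent genes (3.56%), against 1774, 1878 and 275 of all 18598 bins. Runs of A and T of at least 20 bases, like the one of the noc201-ctr5 origin, were in 41.1% of origin bins, against 5.63% of all bins.

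These features went with the size of the rise. The 101 origins of chromosome I with a rise of at least 0.5 had a median AT content of 76.0%, against 70.3% for the 61 with a rise under 0.25. They were intergenic in 94.1%, against 70.5%, and held a run of at least 20 bases in 61.4%, against 19.7%. Across the 253 origins, r between the rise and the AT content was 0.459, given as a description. By distance, mean AT content of the strong origins fell to 71.2% at 0.3 kb and 63.1% at 1.2 kb to the right, against 75.3% in the centre. The wss1 origin bin, at 56.3% and inside a gene, differed from the other named origin bins of the chromosome in both features. A single bin does not place an origin exactly, as the mean change of the index took 1.2 kb. The gene begins at 843283, and to its left lies the gap to the divergent gene tgs1, which reaches to 842625. Whether this origin lies in the gap was not tested.

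**Figure D5:**
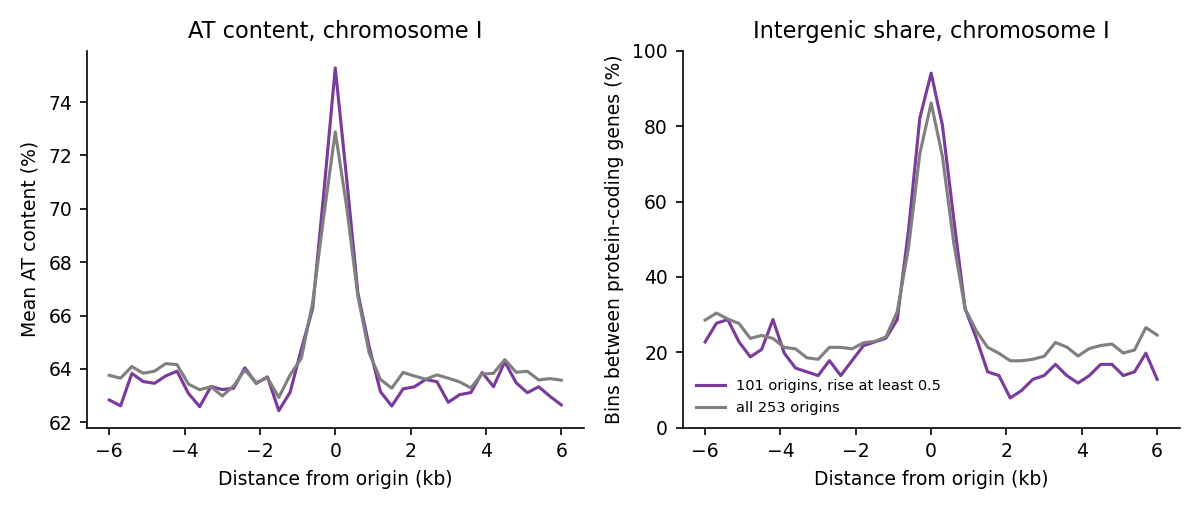
Mean AT content in percent (left) and percentage of bins whose centre lies between protein-coding genes (right) by distance from origins of chromosome I in kb, for the 101 origins with a rise of at least 0.5 and all 253 origins. Both peak in the origin bin, at 75.3% A and T and 94.1% intergenic for the origins of larger rise.

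Genes of chromosome I were set against the direction of the fork that copies them. Of 2333 protein-coding genes, 1243 were transcribed in the direction of the majority of forks, 53.3% ± 0.18 (SD over the 2 Pol ε libraries). Among the 1108 genes with an index under 0.3 or over 0.7 it was 55.8%. Of 56 tRNA genes, whose transcription by RNA polymerase III can slow forks, 33 ran with the fork (58.9% ± 2.5), and of 60 genes of cytosolic ribosomal proteins, 30 did, with an SD of 1.2 percentage points. Among the ribosomal protein genes with an index under 0.3 or over 0.7, 17 of 40 ran with the fork (42.5%). Within this list, rpl2002, for a protein of the large ribosomal subunit, ran most with its forks, rightward at an index of 0.902, and rpl3401, of the same subunit, most against them, leftward at an index of 0.891. Of the 3 histone genes on the chromosome, hta2 (histone H2A, index 0.252) and hhf1 (histone H4, 0.306) were transcribed leftward with the fork, while hht1 (histone H3, 0.233) was transcribed rightward against it. No list was tested.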

How the data were processed

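The deposited counts are mapped ends per 300-bp bin and strand; the authors aligned the reads with Bowtie2 (version and genome build not given in the sources used here), turned the alignments into counts by a Perl script of their own, and applied no normalization. Forward was taken as Watson and reverse as Crick. Members and gene lists were chosen with earlier results of these data known.

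Bins under 10 counts of a polymerase on a strand had no usage there (18 bins). No window had a mean under 10 counts, the minimum for the test. Intervals cover counting error only, and p-values measure only the spread between these strains. KK1473 and KK1474 differed by more than sampling noise (chi-square over degrees of freedom, 1.92) and were kept as 2 replicates. The last bin centre of chromosome I is 0.117 kb from the end of ASM294v3, against 2.046 and -1.733 kb on chromosomes II and III. The assembly was thus used on chromosome I only. There, the excess of T over A per bin correlated most strongly with the Watson share (Pol δ and mean Pol ε added) without a shift. Pearson's r was -0.178, against -0.134 and -0.135 at shifts of 1 bin to either side. Bins are intergenic where their centre lies in no protein-coding gene. rpp1 and rpp40 were left out of the ribosomal protein list.

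Named were, per chromosome, the 3 origins of the largest rise, the longest and shortest distance, the highest and lowest smoothed index, the windows of the largest ratio, and on chromosome I their neighbouring genes. One window of chromosome I is not reported here. Of 200 simulated windows (100 each of log2 1 and 2) all were called, with 14 false calls among the other 8180. The simulated Pol δ library was drawn with the same spread as the Pol ε libraries, and only these 200 windows were changed. The false calls thus do not give the error of the real test if KK1467 varies otherwise. Of 417 simulated origins, 417 were recovered within 0.6 kb, with a median error of the rise of -0.0614. No simulated origin had a rise under 0.25 or a neighbour closer than 10.2 kb, and the noise was counting noise only. Recovery of weak or close origins was thus not tested. Alternatives covered scaling, DESeq2, filters, window and step sizes, smoothing, strands, libraries left out and KK1468. Tests were run in R 4.3.3 with edgeR 4.0.16 and DESeq2 1.42.0; all else used Python 3.11.15 (pandas 2.3.3, numpy 2.4.6, scipy 1.17.1, matplotlib 3.10.9).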

Additional observations from a re-analysis of the deposited data

Results flagged for a closer look

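The shallow library KK1468, which has the label and genotype of the Pol δ strain KK1467 and was left out of the comparisons of the report, had a signal on the strand opposite to its label. Of its 7120 counts in the bins with a direction from WT RFB ON, 4284 lay on leading strands, 60.2% (95% Wilson interval 59.0 to 61.3%), against 31.1% in KK1467, 69.8% in KK1473 and 70.0% in KK1474. In bins with an index under 0.3 or over 0.7 the share was 65.9% (64.2 to 67.5%), against 20.7% in KK1467 and 80.2% and 80.4% in the Pol ε libraries. In bins with an index of 0.4 to 0.6 it was 53.5% (51.3 to 55.7%). It thus lay between the polymerases and nearer to Pol ε, and the cause was not tested.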

How the results depend on the processing

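Leaving out each Pol ε library in turn gave 6414 to 6449 windows (with the spread from the other deep libraries), lagging-strand Pol δ usage of 0.689 to 0.690, leading-strand Pol ε usage of 0.685 to 0.688, 88.4% to 88.6% of bins with the same direction, 49.99% to 50.01% rightward, 612 origins, a spacing of 17.1 kb, a rise of 0.395 to 0.396, 564 origins found in both remaining libraries, a bias difference of 0.0357 to 0.0360, 53.1% to 53.3% of genes with the fork, and origin bins with 73.3% A and T and 85.3% to 85.8% intergenic. TMM scaling gave lagging-strand Pol δ and leading-strand Pol ε usage of 0.699 and 0.677, 89.2% of bins with the same direction and a bias difference of 0.0344. Including KK1468 with the weight of KK1467 gave 0.566 and 0.749. KK1468 had 0 counts in 35607 bins, where this averaging lowers the Pol δ value on both strands. What its strand signal adds to the change was not tested. Pooled counts gave 0.696 and 0.692, and only bins of a clear direction (index under 0.3 or over 0.7) 0.802 and 0.782, with 55.8% of genes of a clear direction running with the fork.

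Without smoothing 49.8% of bins were rightward, and with 21 bins 50.1%, with 87.6% of the same direction on both strands. A step of 0.05 gave a spacing of 14.7 kb and a rise of 0.347, and a step of 0.2 gave 24.3 kb and 0.520. Steps over 5 bins gave 14.4 kb and 0.354, and over 20 bins 24.3 kb and 0.529. Watson alone gave 17.7 kb and 0.413, and Crick alone a rise of 0.401. Of the origins called, 434 were found again at a step of 0.2 and 588 and 592 within 2 kb of an origin from Watson or Crick alone. With 5 bins around the step, 69.3% A and T and 65.5% intergenic were found. The fits without 1 Pol ε library of the origins found and of the origin bins were chosen after seeing the data, as were the calls without the filter on bins (613 origins) and with the spread of the deep WT and nup132 libraries (6993 windows). In 1.5-kb windows 15414 of 16762 were called, and DESeq2 called 7475 of 8380. No paired analysis was possible because the labels give these strains no replicate numbers that pair Pol δ with Pol ε. The main limits are the single Pol δ library and bins of 0.3 kb, and weak origins rest on the threshold of the step.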
